A study of Mus musculus with 6 samples.

Results

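Apelin signalling and the tip cell state are represented here by 5 genes, chosen by symbol from the 55416 genes of the count table: *Apln*, *Aplnr*, *Apela*, *Esm1* and *Kcne3*. All 5 passed the filter on low counts that left 16296 genes for testing, *Apela* only just. *Apln* was at 50.01% of its control level and *Kcne3* was 2.04-fold higher after the loss of *Wt1* from ECs, each without overlap between libraries, as for 19.3% of all genes tested, while the libraries overlapped for *Aplnr*. So these tip cell genes did not share a direction. None of the differences passed an adjusted p-value in the main test, and the calls for *Apln* and *Kcne3* depended on the method.

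The cells were coronary endothelial cells (ECs) of mouse heart ventricles at E15.5, sorted by FACS for membrane GFP (mGFP). The dams received tamoxifen at 75 mg/kg by gavage from E11.5 to E13.5. ControlΔEC embryos were Pdgfb(CreERT2/+); Wt1(+/+); R26(mTmG/+), and Wt1KOΔEC embryos were Pdgfb(CreERT2/+); Wt1(loxP/loxP); R26(mTmG/+). Both genotypes therefore carried the inducible Cre and the mTmG reporter, and both were exposed to tamoxifen. The Cre is driven by *Pdgfb*, itself a tip cell gene, so the sort collected cells in which that driver had been active. With this tamoxifen scheme, the paper describes mGFP at E15.5 in arteries as well as veins of the compact myocardium. Each genotype had 3 libraries, which the labels call biological replicates without saying how many embryos each holds.

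Apelin, the product of *Apln*, is a small secreted peptide that acts on the G protein-coupled receptor encoded by *Aplnr*. *Apela* encodes Elabela, the other known ligand of this receptor, which is best known from the early embryo and the placenta. In growing vessels *Apln* marks the tip cells that lead a sprout, while *Aplnr* is found in the cells behind them and in veins; in the heart, *Aplnr* marks the sinus venosus and the coronary plexus that sprouts from it. *Esm1* encodes endocan, a secreted proteoglycan that VEGF induces in tip cells. *Kcne3* encodes a small membrane protein that modifies voltage-gated potassium channels and is another marker of tip cells.

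The promoters of *Apln* and *Kcne3*, the genes with the largest differences between the genotypes among the 4 that were well detected, are shown because *Wt1* encodes a DNA-binding zinc finger factor. Each runs from 250 bases before to 50 bases after the start of the canonical GENCODE transcript, on the strand of the gene, in GRCm39. *Apln* lies on chromosome X (47114019 to 47123775, minus strand) and its promoter is chrX:47123726-47124025. *Kcne3* lies on chromosome 7 (99825401 to 99836141, plus strand) and its promoter is chr7:99827603-99827902. Capitals mark matches on either strand to GGGCGG (the core of a GC box), TGGGAA (RBPJ, the DNA-binding partner of Notch) or ACGTG and GCGTG (the core of hypoxia response elements).
Apln: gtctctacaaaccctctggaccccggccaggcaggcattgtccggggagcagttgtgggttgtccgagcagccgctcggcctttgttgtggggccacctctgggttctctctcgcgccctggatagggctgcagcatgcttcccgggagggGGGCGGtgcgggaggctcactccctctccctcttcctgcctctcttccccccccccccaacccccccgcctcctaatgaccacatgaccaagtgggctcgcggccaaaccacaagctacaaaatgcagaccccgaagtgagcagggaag
Kcne3: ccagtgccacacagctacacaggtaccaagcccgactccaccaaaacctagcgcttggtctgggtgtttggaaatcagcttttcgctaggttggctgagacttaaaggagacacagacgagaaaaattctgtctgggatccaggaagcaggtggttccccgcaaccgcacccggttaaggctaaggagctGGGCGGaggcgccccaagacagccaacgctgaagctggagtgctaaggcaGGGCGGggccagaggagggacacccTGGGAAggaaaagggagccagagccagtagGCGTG

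The *Apln* window had a GC content of 65% and 1 GC box core, from 99 to 94 bases before the start. The *Kcne3* window had a GC content of 58.7% and 2 GC box cores, from 60 to 55 and from 10 to 5 bases before the start. It also held TGGGAA from base 16 to 21 and GCGTG from base 46 to 50 after the start. Such matches are common: GGGCGG was found in 42.5%, TGGGAA in 25.9% and ACGTG or GCGTG in 48% of the same windows of 21770 protein-coding genes. The letters GCGGGGGCG, GCGTGGGCG and GCGTGGGAG, which WT1 and EGR factors are known to bind and the last 2 of which contain GCGTG, were in none of the 5 windows and in 4.44% of all windows. The windows of *Aplnr* and *Esm1* held none of the letters searched, and that of *Apela* held GCGTG and the forkhead core GTAAACA, the latter present in 3.15% of windows. These are matches of letters and not binding sites, and an absent match says only that those letters are not in this window.

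The libraries held 26037324 to 44779020 expected counts. Levels are in CPM, counts scaled to library size after TMM normalization, which corrects for differences in library composition, and 3 counts, taken as the limit of detection, correspond to 0.0608 to 0.119 CPM. This limit covers counting error only, because the amplified reads are not independent molecules. *Wt1* itself (chromosome 2, 104956625 to 105003961) was at 145, 109.5 and 149 CPM in ControlΔEC replicates 1, 2 and 3 and at 14.0, 18.4 and 21.3 CPM in Wt1KOΔEC replicates 1, 2 and 3, so each library matched its label. EC markers (*Pecam1*, *Cdh5*, *Cldn5*, *Tie1*, *Erg* and *Egfl7*) summed to 3349 to 4270 CPM in ControlΔEC and 3403 to 4106 CPM in Wt1KOΔEC. The composition of the libraries differed with genotype: mitochondrially encoded genes took 5.21% to 6.61% of counts in ControlΔEC and 1.68% to 4.57% in Wt1KOΔEC, and *Rn18s* 13.2% to 15.3% and 21.1% to 26.5%.

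**Figure D1:**
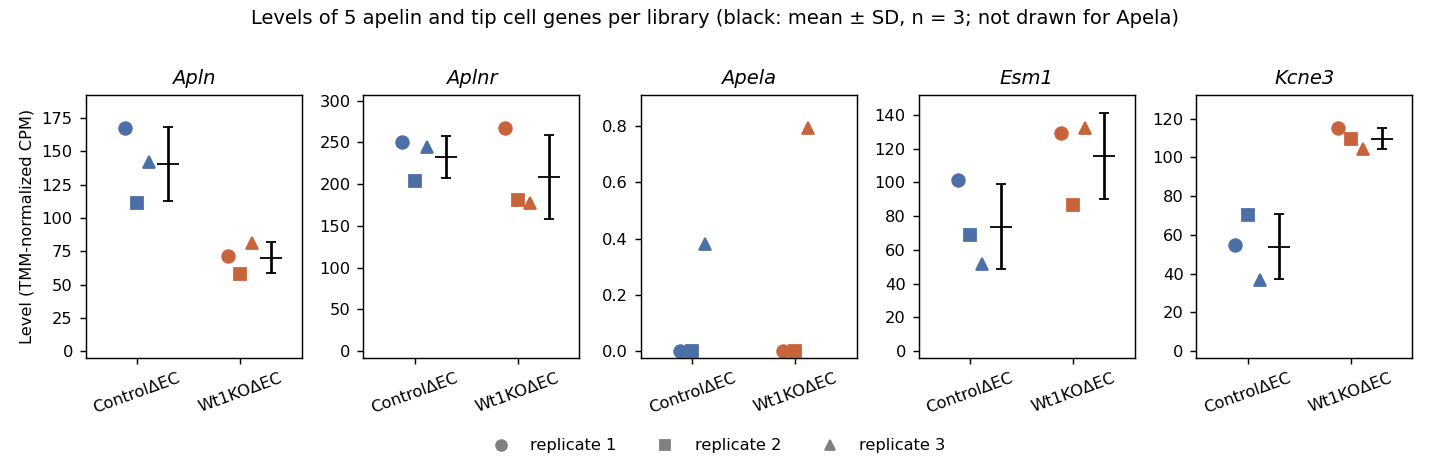
Level of each gene in every library, in TMM-normalized CPM on linear axes that differ between panels; symbols mark the replicate number, blue ControlΔEC and orange Wt1KOΔEC, and black bars the mean ± SD of 3 libraries (not drawn for *Apela*). *Apln* was between 112 and 167 CPM in ControlΔEC and between 57.9 and 81.6 CPM in Wt1KOΔEC, *Kcne3* separated the genotypes in the other direction, and *Aplnr* and *Esm1* overlapped.

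Expression of the ligand *Apln* (ENSMUSG00000037010.8) was at 167, 112 and 142 CPM in ControlΔEC replicates 1, 2 and 3. In Wt1KOΔEC replicates 1, 2 and 3 it was at 71.2, 57.9 and 81.6 CPM. Every Wt1KOΔEC library thus lay below every ControlΔEC library. The means were 140 ± 27.8 CPM in ControlΔEC and 70.2 ± 11.8 CPM in Wt1KOΔEC (SD, n = 3 libraries). The log2 fold change was -1.0 (standard error (SE) 0.20, 95% interval -1.45 to -0.55), that is 50.01% of the ControlΔEC level, with an adjusted p of 0.114 from edgeR's quasi-likelihood test. DESeq2, the tool the study's methods name, gave the same size of difference (-1.0, standard error 0.22) with an adjusted p of 4.9e-04. With each library left out in turn the log2 fold change lay between -1.14 and -0.85. No 51-base stretch of the *Apln* transcripts occurs in a transcript of another gene, so its counts are not shared with a copy.

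*Apln* is X-linked, and the libraries differed in sex-linked RNA. *Ddx3y*, *Eif2s3y*, *Kdm5d* and *Uty*, which lie on the Y chromosome, summed to 139 CPM in ControlΔEC replicate 2 and 141 CPM in Wt1KOΔEC replicate 2 and had no counts in the other 4 libraries. *Xist*, the RNA of the inactive X chromosome, was at 0 and 3.71 CPM in these libraries and at 313 to 717 CPM in the other 4. *Apln* was lowest in the library with Y-linked RNA in each genotype. Between those 2 libraries, the Wt1KOΔEC level of *Apln* was 51.9% of that in ControlΔEC; among the 4 libraries without Y-linked RNA it was 49.3%. With the presence of Y-linked RNA as a block, a fit chosen once the values were known, the log2 fold change of *Apln* was -1.0 (SE 0.15 and edgeR adjusted p = 0.118).

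The receptor gene *Aplnr* (ENSMUSG00000044338.10; chromosome 2, 84966569 to 84970267, plus strand) was the most abundant of the 5 genes. It was at 250.2, 204 and 244 CPM in ControlΔEC replicates 1, 2 and 3 and at 267, 181.5 and 178 CPM in Wt1KOΔEC replicates 1, 2 and 3. The highest and the 2 lowest of the 6 values were all from Wt1KOΔEC, so the genotypes overlapped. The log2 fold change was -0.16 (standard error 0.20, 95% interval -0.60 to 0.28), with an adjusted p of 0.824 from edgeR and 0.786 from DESeq2. The interval reached just past the fold change limit of 0.58 on the lower side. With single libraries left out, the value ranged from -0.37 (without Wt1KOΔEC replicate 1) to -0.06 (without Wt1KOΔEC replicate 3), so its size rested on single libraries. *Aplnr* lies 20.0 Mb from *Wt1* on the same chromosome.

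The other ligand, *Apela* (ENSMUSG00000079042.11; chromosome 8, 65478785 to 65489988, minus strand), had no counts in replicates 1 and 2 of either genotype. It had 11 counts in ControlΔEC replicate 3 and 20 counts in Wt1KOΔEC replicate 3, which correspond to 0.381 and 0.791 CPM. Its 4 empty libraries allow up to 0.0608 to 0.0842 CPM. No fold change is given, because 4 of 6 libraries were under the limit of detection. Of the 51-base stretches in its transcripts, 19.3% also occur in the overlapping noncoding RNA *Gm45886*, so even these few counts may be shared. *Apln* was therefore the only ligand of the receptor detected in all 6 libraries.

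*Esm1* (ENSMUSG00000042379.9; chromosome 13, 113346021 to 113354632, plus strand) was at 101, 68.6 and 51.7 CPM in ControlΔEC replicates 1, 2 and 3. It was at 129, 86.4 and 132 CPM in Wt1KOΔEC replicates 1, 2 and 3. ControlΔEC replicate 1 was above Wt1KOΔEC replicate 2, so the genotypes overlapped although the mean was higher in Wt1KOΔEC (116 ± 25.5 against 73.8 ± 25.1 CPM, SD, n = 3 libraries). The log2 fold change was 0.65 (standard error 0.27, 95% interval 0.05 to 1.25, adjusted p = 0.347 from edgeR and 0.194 from DESeq2). It was 0.95 without ControlΔEC replicate 1 and 0.45 without ControlΔEC replicate 3, and in the fits without 1 library it kept an unadjusted p under 0.05 with the fold change limit only without ControlΔEC replicate 1 or Wt1KOΔEC replicate 2. The difference was smaller between the libraries with Y-linked RNA, where the Wt1KOΔEC level was 126% of ControlΔEC, than among the others, where it was 171%; this contrast was not tested.

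*Kcne3* (ENSMUSG00000035165.15) was at 54.7, 70.1 and 36.6 CPM in ControlΔEC replicates 1, 2 and 3 and at 115, 109.7 and 104.5 CPM in Wt1KOΔEC replicates 1, 2 and 3. All 3 Wt1KOΔEC libraries lay above all 3 ControlΔEC libraries and close to each other, with means of 109.7 ± 5.20 and 53.8 ± 16.8 CPM (SD, n = 3 libraries). The log2 fold change was 1.03 (standard error 0.23, 95% interval 0.51 to 1.54), a 2.04-fold higher level. Its adjusted p was 0.155 from edgeR's quasi-likelihood test and 0.0035 from DESeq2. Leaving out single libraries gave 0.82 (without ControlΔEC replicate 3) to 1.26 (without ControlΔEC replicate 2). The Wt1KOΔEC level was 156% of ControlΔEC between the libraries with Y-linked RNA and 240% among the others. The exons of *Kcne3* overlap antisense noncoding RNAs, *Gm51453* over 3.58% of their length and *Gm34821* over 0.131%; the counting is not stated to use strand, so reads from these parts cannot be assigned. Of the 51-base stretches of its transcripts, 3.15% also occur in transcripts of other genes.

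Of the 5 genes, edgeR's quasi-likelihood test called 0 at an adjusted p under 0.05 with a log2 fold change beyond 0.58 in size, where 12 of 16296 genes (0.0736%) were called, 0.0491% higher and 0.0245% lower in Wt1KOΔEC. With an unadjusted p in the same rule, 3 of the 5 passed, *Apln* among the 5.96% of genes that were lower and *Esm1* and *Kcne3* among the 4.17% that were higher (10.1% together). DESeq2 called 2 of the 5, *Apln* with 2.63% of genes lower and *Kcne3* with 2.2% higher (4.83% together). Separation of all 3 libraries of one genotype from the other 3 was seen for the same 2 genes, and for 19.3% of all genes, 8.97% lower and 10.3% higher. Separation alone was thus common in this table. By unadjusted p in edgeR, *Apln* ranked 107 and *Kcne3* 156 of 16296 genes.

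**Figure D2:**
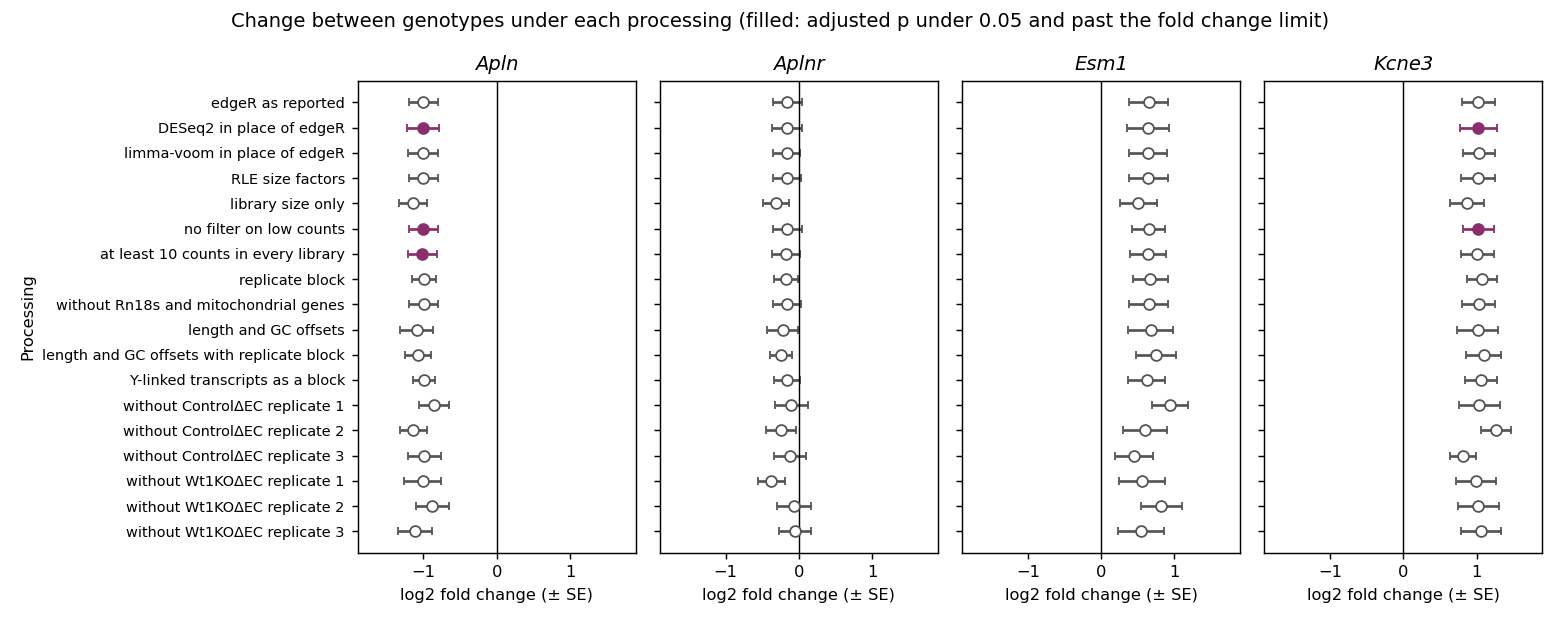
Log2 fold change (Wt1KOΔEC over ControlΔEC, ± standard error) of *Apln*, *Aplnr*, *Esm1* and *Kcne3* under each processing, one row per setting; filled symbols passed an adjusted p of 0.05 and the fold change limit. The direction of each gene was the same in every row, while the adjusted p of *Apln* ranged from 4.9e-04 to 0.421 and that of *Kcne3* from 0.0035 to 0.473.

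Because all genes of a library share its scaling, the ratio of 2 genes within a library does not depend on normalization. The count of *Apln* was 3.06, 1.59 and 3.89 times that of *Kcne3* in ControlΔEC replicates 1, 2 and 3, and 0.620, 0.528 and 0.780 times in Wt1KOΔEC replicates 1, 2 and 3. *Kcne3* thus had fewer counts than *Apln* in every ControlΔEC library and more in every Wt1KOΔEC library, a 4.20-fold shift of the ratio. The ratio of *Apln* to *Esm1* was 1.65, 1.63 and 2.75 in ControlΔEC and 0.552, 0.671 and 0.618 in Wt1KOΔEC, a 3.19-fold shift. For the ligand and its receptor, the ratio of *Apln* to *Aplnr* was 0.668, 0.546 and 0.583 in ControlΔEC and 0.267, 0.319 and 0.459 in Wt1KOΔEC, a 1.76-fold shift.

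The 6 ratios reuse the same 4 well-detected genes and are not independent, and the share of all gene pairs whose ratios separate the genotypes was not computed. For 5 of them the genotypes did not overlap, and each had p = 0.1 in a two-sided exact permutation test, which is the smallest p that 3 libraries against 3 allow, and an adjusted p of 0.12 over the 6 ratios by the exact permutation test. The exception was *Esm1* to *Kcne3* (1.85, 0.979 and 1.41 in ControlΔEC, 1.12, 0.787 and 1.26 in Wt1KOΔEC), with p = 0.4 in the exact permutation test. The ratios of *Aplnr* to *Esm1* and to *Kcne3* shifted by 1.81-fold and 2.39-fold. A ratio cannot say which of a pair stayed at its level.

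**Figure D3:**
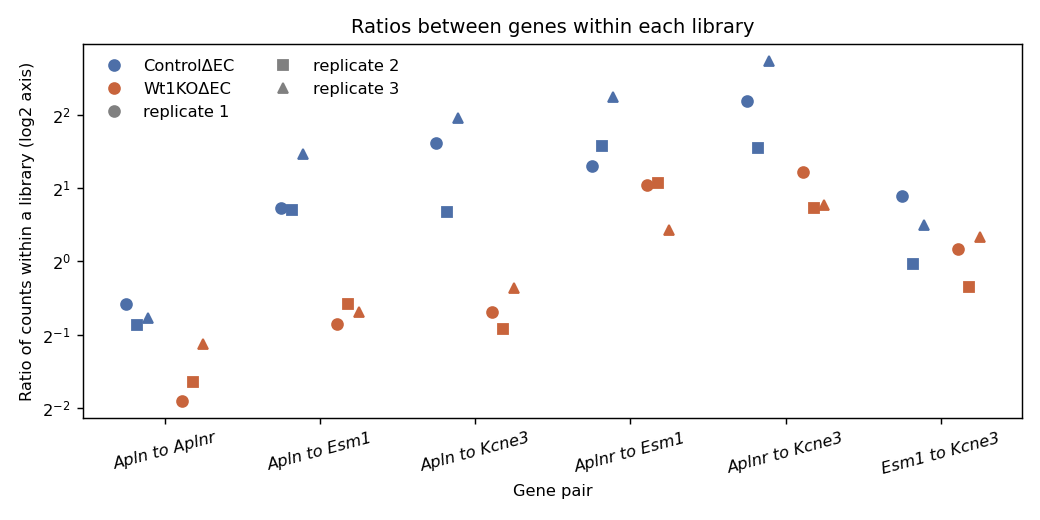
Ratio of the counts of 2 genes within each library, on a log2 axis; blue is ControlΔEC, orange Wt1KOΔEC, and symbols mark the replicate number. The ratio of *Apln* to *Kcne3* was 1.59 to 3.89 in ControlΔEC and 0.528 to 0.780 in Wt1KOΔEC, while the ratios of *Esm1* to *Kcne3* overlapped.

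To compare the genes with each other, CPM was divided by exonic length in kb. In ControlΔEC, the level per kb was 63.0 ± 6.73 CPM for *Aplnr*, 37.1 ± 7.36 for *Apln*, 32.5 ± 11.1 for *Esm1*, 7.85 ± 2.45 for *Kcne3* and 0.103 for *Apela* (SD, n = 3 libraries). *Aplnr* was above *Apln* in every library, and *Apln* and *Esm1* did not differ beyond their spread. In Wt1KOΔEC the order was *Aplnr* at 56.4 ± 13.6, *Esm1* at 51.03 ± 11.2, *Apln* at 18.6 ± 3.13, *Kcne3* at 16.01 ± 0.759 and *Apela* at 0.213 CPM per kb. There, *Aplnr* and *Esm1* did not differ beyond their spread, nor did *Apln* and *Kcne3*. Among 16238 genes with a length, the median rank per kb of *Apln* was 687 in ControlΔEC and 1596 in Wt1KOΔEC, that of *Kcne3* 3365 and 1811, and that of *Esm1* 845 and 513.

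The other tip cell genes were a list of 21 given by textbook knowledge. Of these, 3 were higher in Wt1KOΔEC at an unadjusted p under 0.05 and past the fold change limit. By the same rule 0 were lower and 18 passed in neither direction, while 4.17% of all genes were higher and 5.96% lower. None was called by edgeR at an adjusted p, 4 had an unadjusted p under 0.05 at any fold change, beside 13.1% of all genes, and DESeq2 called 2, *Igf2* and *Plaur*, beside 4.83% of all genes. The median log2 fold change of the 21 was -0.17, beside -0.03 over all 16296 genes. *Plaur*, the urokinase receptor, was at 113, 77.3 and 88.3 CPM in ControlΔEC and 147, 129 and 154 CPM in Wt1KOΔEC (log2 fold change 0.63 with SE 0.18, edgeR adjusted p = 0.220). *Cxcr4*, the receptor of the chemokine CXCL12, was at 15.3, 11.8 and 15.3 CPM in ControlΔEC and 26.3, 24.2 and 18.0 CPM in Wt1KOΔEC (0.69 with SE 0.25, edgeR adjusted p = 0.302). *Igf2*, a fetal growth factor, had a log2 fold change of 0.67 (SE 0.17 and edgeR adjusted p = 0.190).

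Of the same list, *Kdr*, the main VEGF receptor of ECs, had a log2 fold change of -0.29 and *Cd34*, a surface sialomucin, of -0.42. Their adjusted p-values were 0.425 and 0.335 from edgeR. They were the 2 of the 21 that were lower in Wt1KOΔEC without overlap, and 3 were higher, beside 8.97% and 10.3% of all genes. *Dll4*, the Notch ligand of tip cells, was at 312, 351 and 218 CPM in ControlΔEC and 265, 316 and 221 CPM in Wt1KOΔEC (-0.13, standard error 0.21). *Pdgfb*, whose promoter drives the Cre, was at 71.3, 55.8 and 51.7 CPM in ControlΔEC and 49.6, 57.8 and 35.9 CPM in Wt1KOΔEC (-0.32, standard error 0.22). The genotypes overlapped for *Dll4* and *Pdgfb* and for *Angpt2* (0.44, standard error 0.29), which encodes a ligand of the Tie2 receptor. The log2 fold changes of *Apln* and *Kcne3* lay outside the range of the list of 21, which was -0.42 to 0.69.

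**Figure D4:**
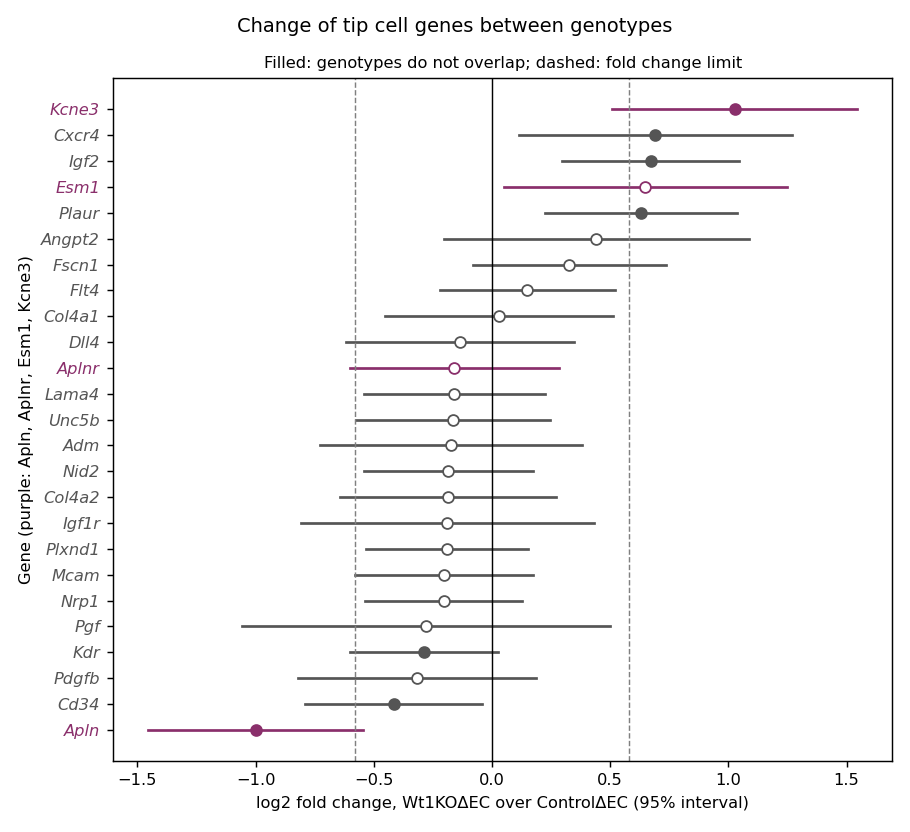
Log2 fold change (Wt1KOΔEC over ControlΔEC) with its 95% interval from edgeR for *Apln*, *Aplnr*, *Esm1* and *Kcne3* (purple) and 21 other tip cell genes (grey); filled symbols are genes whose libraries did not overlap, and dashed lines mark the fold change limit of 0.58. *Apln* at -1.0 and *Kcne3* at 1.03 lie at the ends, and 16 of the 21 other genes have open symbols. Of the 21, 3 were higher and 2 lower without overlap, beside 10.3% and 8.97% of all genes.

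None of the listed genes that act with the apelin receptor was called. Of the 9 transducers (the G protein alpha subunits *Gnai1*, *Gnai2*, *Gnai3*, *Gnaq*, *Gna11* and *Gna13*, the arrestins *Arrb1* and *Arrb2* and the receptor kinase *Grk2*), 0 passed at an adjusted or an unadjusted p in edgeR, and 0 were called by DESeq2; their log2 fold changes lay between -0.39 for *Gna13* and 0.31 for *Arrb1*. *Furin*, a protease that cleaves the apelin precursor, was at 22.3 to 37.3 CPM in ControlΔEC and 29.1 to 35.8 CPM in Wt1KOΔEC. *Mme*, which encodes neprilysin, an enzyme that breaks apelin down, was at 0 to 6.10 CPM.

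Among 7 genes placed downstream of apelin signalling in ECs, *Foxo1* and *Cd36* were lower in Wt1KOΔEC at an unadjusted p past the fold change limit. These 2 stand beside 5.96% of all genes, and 0 of the 7 were higher. An unadjusted p under 0.05 was found for 4 of the 7, beside 13.1% of all genes. Of the 7, 0 were called by edgeR and 1 by DESeq2, which called 4.83% of all genes. *Foxo1*, a forkhead factor that restrains EC growth, was at 69.5, 86.8 and 45.1 CPM in ControlΔEC and 38.0, 37.1 and 33.6 CPM in Wt1KOΔEC (log2 fold change -0.89 with SE 0.24, edgeR adjusted p = 0.209), and it was the gene that DESeq2 called. *Cd36*, a fatty acid transporter, was at 1054, 367 and 1079 CPM in ControlΔEC replicates 1, 2 and 3, and at 398 to 525 CPM in Wt1KOΔEC. *Nos3*, the endothelial nitric oxide synthase, had a log2 fold change of -0.49 without overlap of the genotypes (adjusted p = 0.310 from edgeR). *Fabp4*, a fatty acid binding protein, overlapped (0.06, standard error 0.26), and so did the flow-responsive factors *Klf2* and *Klf4*. The median of the 7 was -0.34, beside -0.03 over all genes.

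Notch signalling holds back the tip state in stalk cells, and the listed Notch and stalk cell genes were mixed. Of the 12 listed genes, 1 was higher (*Hes1*) and 3 lower (*Notch4*, *Jag2* and *Nrarp*) at an unadjusted p past the fold change limit. Over all genes these shares were 4.17% and 5.96%. Of the 12, 0 were called by edgeR and 2 by DESeq2, which called 4.83% of all genes. The median log2 fold change was -0.08. *Hes1*, a transcriptional target of Notch, was at 48.9, 52.7 and 43.0 CPM in ControlΔEC and 77.8, 83.8 and 91.8 CPM in Wt1KOΔEC (0.81 with SE 0.16, edgeR adjusted p = 0.114). The Notch ligand *Jag2* was at 66.2, 59.5 and 45.1 CPM in ControlΔEC and 35.1, 34.2 and 29.1 CPM in Wt1KOΔEC (-0.80 with SE 0.20, edgeR adjusted p = 0.199). *Notch4* and *Nrarp* were high in ControlΔEC replicates 1 and 2 and, in replicate 3, at 103 and 16.5 CPM, below every Wt1KOΔEC library.

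*Apln* and *Esm1* are known to respond to hypoxia and VEGF, and 11 genes of those pathways were listed. *Egln3*, a hypoxia-induced prolyl hydroxylase, was higher (1.04, standard error 0.33) and *Epas1*, which encodes HIF2 alpha, was lower (-0.66, standard error 0.18) at an unadjusted p and past the limit. By this rule 4.17% of all genes were higher and 5.96% lower. The adjusted p-values of *Egln3* and *Epas1* were 0.251 and 0.217 from edgeR, which called 0 of the 11 genes. DESeq2 called *Epas1*, beside 4.83% of all genes. *Ankrd37* was at 18.1 to 18.5 CPM in ControlΔEC and 22.9 to 26.2 CPM in Wt1KOΔEC. *Slc2a1* was at 126 to 151 CPM in ControlΔEC and 153 to 162 CPM in Wt1KOΔEC. With *Egln3*, 3 of the 11 genes were higher without overlap and 1 was lower, beside 10.3% and 8.97% of all genes. *Hif1a* overlapped between the genotypes (-0.20), and *Vegfa* was low, at 0.639 to 2.98 CPM. The median of the list was -0.05.

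Of the KCNE subunits analysed, *Kcne3* had the highest level in every library. *Kcne2* had no counts in any library, which allows up to 0.119 CPM; *Kcne1* was at 0 to 4.36 CPM and *Kcne4* at 0 to 1.04 CPM. The channel gene *Kcnq1*, whose product KCNE3 is known to modify, was at 27.6, 32.8 and 25.9 CPM in ControlΔEC and 31.7, 23.4 and 13.2 CPM in Wt1KOΔEC (log2 fold change -0.34 with SE 0.31, edgeR adjusted p = 0.746). The channel genes *Kcnc4* and *Kcnh2* did not pass the filter on low counts. None of the 3 genes of this list that were tested passed at an unadjusted p or was called by DESeq2.

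*Aplnr* is usually grouped with venous genes. Of 7 such genes, 1 was higher at an unadjusted p and past the fold change limit, *Nr2f2*, a venous nuclear receptor, at 8.29, 10.7 and 8.84 CPM in ControlΔEC and 21.8, 13.6 and 16.8 CPM in Wt1KOΔEC (0.91 with SE 0.29, edgeR adjusted p = 0.258). *Emcn*, an endothelial sialomucin, had a log2 fold change of 0.41 without overlap of the genotypes, and *Nrp2*, a VEGF coreceptor, of -0.25, also without overlap. With *Nr2f2*, 2 of the 7 were higher without overlap and 1 was lower, beside 10.3% and 8.97% of all genes. *Ephb4*, *Tek*, *Aqp1* and *Dab2* overlapped. Neither edgeR nor DESeq2 called any of the 7, beside 0.0736% and 4.83% of all genes. The unadjusted p was under 0.05 for 2, beside 13.1% of all genes, and the median log2 fold change was 0.25. Past the fold change limit, 4.17% of all genes were higher at an unadjusted p.

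Genes whose log2 CPM was most like that of each gene over the 6 libraries were found by Pearson's r among 8469 genes with a mean of at least 10 CPM. For *Apln* these were *Rnf13* (r = 0.995), *Gli3* (0.986), *Abcg2*, *Erbin* and *Osbpl2* (0.983 each), and 120 genes had r above 0.9. For *Kcne3* they were *Itpa* (0.998), *Tmem14c* (0.995), *Cdk4* (0.987), *Galk1* (0.985) and *Amd2* (0.985), with 224 genes above 0.9. *Esm1* was most like *Farsb*, *Pmm1*, *Tmem134*, *Uqcr10* and *Tbl2* (0.976 to 0.982), and *Aplnr* most like *Gm4366*, *Fance*, *Farsa*, *Rps2-ps13* and *Fez2* (0.941 to 0.962). No such genes are named for *Apela*, which had no counts in 4 of the libraries. Among the members, r was -0.89 between *Apln* and *Kcne3*, 0.77 between *Esm1* and *Kcne3* and -0.45 between *Apln* and *Esm1*. The 6 libraries fall into 2 genotypes and differ in depth and composition, so these values describe the libraries only.

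Markers of several other cell types differed between the genotypes at an unadjusted p. At an adjusted p edgeR called 1 of them, *Col1a1*, beside 0.0736% of all genes. In sorted bulk samples fewer cells of a type and less RNA per cell cannot be told apart. Over all genes, 4.17% were higher and 5.96% lower at an unadjusted p and past the limit. The 6 macrophage genes summed to 194 to 547 CPM in ControlΔEC and 104 to 171 CPM in Wt1KOΔEC, with 4 lower at an unadjusted p and past the limit. The 7 mural genes summed to 433 to 469 CPM in ControlΔEC and 305 to 355 CPM in Wt1KOΔEC, 2 of them lower (*Pdgfrb* and *Cspg4*). The 6 fibroblast genes summed to 313 to 475 and 525 to 695 CPM with 3 higher, the 5 endocardial genes to 278 to 379 and 387 to 481 CPM with 3 higher, the 5 epicardial genes to 8.94 to 16.1 and 16.1 to 44.8 CPM with 2 higher, and the 3 lymphatic genes to 23.4 to 43.9 and 57.6 to 79.9 CPM with 1 higher. The 7 cardiomyocyte genes summed to 181 to 241 and 147 to 329 CPM with 0 of the 6 tested passing in either direction, and *Nkx2-5* had no counts in ControlΔEC. No other marker gene was at 0 in all libraries of a genotype. The part of these cells in the levels of *Apln*, *Esm1* and *Kcne3* was not tested.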

How the data were processed

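Bulk RNA-Seq was analysed from mGFP-sorted cardiac ECs, with 3 libraries from ControlΔEC and 3 from Wt1KOΔEC embryos. The authors made them with SMART-seq2 and Nextera XT, aligned reads with STAR 2.7.8a and deposited RSEM 1.3.0 expected counts per gene of GENCODE vM27, as whole numbers without normalization. The paper's methods name GRCm39 and the submitters' processing notes GRCm38. A gene was tested when 2 or more libraries held 10 or more of its counts. The genotypes were compared in R 4.3.3 with edgeR 4.0.16 (TMM, quasi-likelihood F test, Benjamini-Hochberg adjustment over the genes kept); DESeq2 1.42.0 and limma-voom (limma 3.58.1) were alternatives. Standard errors were computed by dividing the absolute log2 fold change by the root of F. Genotype and replicate number came from the labels, which say nothing of what a number shares. The library codes start with AT in every ControlΔEC library and AU in every Wt1KOΔEC library, and what the letters mean is not said. No batch is named, so a batch that follows genotype cannot be told apart from it. P-values measure only the spread between these libraries, which may be technical in part. Positions, exonic lengths and promoters are those of GENCODE vM39 on GRCm39. Other alternatives were RLE size factors, library size only, other filters, no fold change limit, the replicate number as a block, no *Rn18s* or mitochondrial genes, and each library left out; length and GC offsets and a block for Y-linked RNA were chosen once values were known. The count test was tested on simulated data. The genes, lists (named genes were the 5, the list genes and the 5 most similar genes of each, not given for *Apela*) and tests were chosen with earlier results of these data known; sex-linked genes and promoter motifs were chosen after the values were seen. *Kcne5* was on the list of potassium channel subunits and was not analysed here.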

Additional observations from a re-analysis of the deposited data

How the results depend on the processing

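The direction of *Apln*, *Aplnr*, *Esm1* and *Kcne3* was the same in all 17 alternatives. *Apela* is left out here, because its fitted values rest on 1 library with counts in each genotype. *Apln* was called by DESeq2 (-1.0, adjusted p = 4.9e-04), without a filter on low counts (-1.0, 0.0079) and with at least 10 counts in every library (-1.01, 0.0356). *Kcne3* was called by DESeq2 (1.02, adjusted p = 0.0035) and without a filter (1.03, 0.0093). The number of the 5 genes called was thus 2, 2 and 1 under these settings, and 0 in the fits that left out 1 library. Over all genes tested, 12 were called in the main fit, 767 by DESeq2, 296 without a filter, 113 with at least 10 counts in every library and 6 with length and GC offsets, also with the replicate block; with the block for Y-linked RNA it was 5. With single libraries left out it was 2 (without Wt1KOΔEC replicate 3) to 37 (without ControlΔEC replicate 3). In these fits *Apln* lay between -1.14 and -0.85, *Aplnr* between -0.37 and -0.06, *Esm1* between 0.45 and 0.95, and *Kcne3* between 0.82 and 1.26 on the log2 scale. The cause of the different numbers of calls was not tested.

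Scaling by library size alone moved the median of all genes to -0.18; relative to it *Apln* was at -0.96, *Aplnr* at -0.13, *Esm1* at 0.69 and *Kcne3* at 1.05. Without *Rn18s* and mitochondrial genes *Apln* was at -1.0 and *Kcne3* at 1.03. Of the 12 genes called in the main fit, 66.7% were higher in Wt1KOΔEC, and of the 8 called with limma-voom, 87.5%. The share was 45.5% of 11 genes with library size alone and 50% of 6 genes with length and GC offsets. These shares rest on few genes. With the replicate number as a block, 5 genes were called in all, 0 of the 5 genes described here, and *Apln* was at -0.99 (adjusted p = 0.145) and *Kcne3* at 1.07 (0.152). Deviations from the genotype means correlated at 0.057, 0.004 and 0.02 between libraries with the same number, and not every library correlated best with its own number, so the numbers were not taken as pairs.

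DESeq2 in place of edgeR called 4.83% of all genes, and lists of different size gained calls. From 0 to 1 went the 7 genes downstream of apelin, 11 hypoxia and VEGF genes, 3 lymphatic markers and 6 dissociation response genes. From 0 to 2 went the 21 tip cell genes and the 12 Notch and stalk cell genes. The 5 epicardial, 7 mural, 5 endocardial, 6 macrophage and 7 erythroid markers also went from 0 to 2. For the 6 fibroblast markers the number went from 1 to 2. Without division by length, the median rank over the 6 libraries was 1681.5 for *Apln*, 579 for *Aplnr* and 1775 for *Esm1*. *Apela*, *Kcne1* and *Kcne4* lie at or under 3 counts in some libraries, the limit of detection used here; the counts of *Apela* were in the shallowest library of each genotype and not in the deeper ones.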

Other observations

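Some genes outside the sprouting programme, listed as signs of other cells or of handling, also differed between the genotypes at an unadjusted p. *Hbb-y*, the embryonic beta-like globin of primitive erythroid cells, was at 27.7, 43.5 and 7.38 CPM in ControlΔEC replicates 1, 2 and 3 and at 183, 102 and 184 CPM in Wt1KOΔEC replicates 1, 2 and 3 (log2 fold change 2.57 with SE 0.54, edgeR adjusted p = 0.128). Of the 7 erythroid genes, 5 had a log2 fold change below 0, as did 8474 of all 16296 genes. Among these 5 were *Alas2*, the first enzyme of erythroid heme synthesis, at -1.15 and *Hbb-bt*, an adult beta globin, at -0.79. Reads of *Hbb-bt* can be shared with its near-identical copy *Hbb-bs*, and its libraries overlapped between the genotypes. Without overlap, 1 of the 7 was higher (*Hbb-y*) and 1 lower (*Alas2*), beside 10.3% and 8.97% of all genes. The 7 genes summed to 6567 to 14340 CPM in ControlΔEC and 5104 to 8490 CPM in Wt1KOΔEC, so the sums overlapped. Of 6 dissociation response genes, 3 were higher in Wt1KOΔEC at an unadjusted p and past the fold change limit, beside 4.17% of all genes. In the other direction 0 passed, and 4 of the 6 were higher without overlap, beside 10.3% of all genes. Their sum was 1439 to 1900 CPM in ControlΔEC and 2112 to 3127 CPM in Wt1KOΔEC. *Fos*, an immediate early gene, had a log2 fold change of 0.70 (SE 0.16 and edgeR adjusted p = 0.170). Of the 6 genes, edgeR called 0 and DESeq2 called 1, where DESeq2 called 4.83% of all genes. Whether these values bear on *Apln* or *Kcne3* was not tested.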
